A study of Mus musculus with 17 samples.

Results

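Bone marrow-derived macrophages of Smad3-KO mice that had been given transforming growth factor beta 1 (TGF-β1) were compared with untreated macrophages of the same genotype. The comparison rests on 3 TGF-β1 libraries and 5 control libraries, 8 of the 17 in the series, and it runs across all genes. The members were chosen by the genotype and treatment in the sample titles, and no measured value entered the choice. Mice were of the C57BL/6J (H-2b) background in all groups, and their age is not given here. Marrow cells matured into macrophages over 7 days in 50 ng/ml M-CSF, the growth factor of the lineage, and TGF-β1 was given at 5 ng/ml for 5 days. The treatment text is the same on control and treated samples, so whether control cells were kept in culture for those 5 days is not known. The series also holds 5 control and 4 TGF-β1 libraries labelled Smad3-WT, which are set beside the knockout here only where a difference between the genotypes is described. The study is about macrophages that turn into myofibroblasts and acquire smooth muscle actin when TGF-β1 is given, and the knockout libraries address what TGF-β1 does without Smad3. Its design text speaks of F4/80-positive cells sorted by smooth muscle actin, but no label ties a library to a sort, and neither the animal, the culture nor the kind of Smad3 allele is named.

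TGF-β1 binds its type II receptor, which activates the type I receptor, and the active receptor phosphorylates Smad2 and Smad3. Both join Smad4 and enter the nucleus, where Smad3 binds short DNA motifs, while Smad6 and Smad7 are inhibitors that the pathway induces as feedback. In brain macrophages (microglia) TGF-β is known for keeping the resident gene programme on. In other tissues it is known for turning fibroblasts into contractile, matrix-producing myofibroblasts.

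Smad3 itself (ENSMUSG00000032402, chromosome 9), a check of the labels, did not follow them. Its TPM, the transcript abundance relative to a fixed total per library, was 0, 0.27, 1.93, 0 and 0 in knockout controls 1 to 5 and 6.18, 0.01 and 22.3 in the libraries given TGF-β1, 1 to 3. Control 3 and TGF-β1 libraries 1 and 3 thus held at least 1 TPM of the transcript that the label says is knocked out, and TGF-β1 library 2 was at 0.01. The mean of log2(TPM + 1) was 2.47 with TGF-β1 and 0.38 without, a difference of 2.09 (two-sided exact permutation p = 0.107; the smallest p that 3 against 5 libraries allow is 0.0357). In wild type Smad3 was at 0, 0.01, 0, 15.4 and 11.5 TPM in controls 1 to 5 and listed at 0 in all 4 TGF-β1 libraries, so that 2 of 9 wild-type libraries reached 1 TPM against 3 of 8 knockout ones. The transcript thus did not separate the genotypes, and whether libraries were exchanged was not tested, which limits every comparison of genotypes below to the labels. A gene value cannot show whether the deleted part was transcribed, so the groups are called here by their label. Without the 3 libraries at 1 TPM or more, 1 TGF-β1 library (library 2) and 4 controls remain, and values from that comparison are given below for gene lists and for some genes, not for every gene that it moves.

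The knockout libraries expressed macrophage genes throughout. All 23 pan-macrophage genes examined passed the filter on low values (at least 1 TPM in 3 of the 17 libraries), and the mean of their log2(TPM + 1) lay between 8.19 and 9.09 in controls and between 9.07 and 9.45 with TGF-β1. Cd68, a lysosomal membrane protein of macrophages, was at 1625, 4233, 2905, 2779 and 3907 TPM in controls 1 to 5 and at 2405, 1129 and 2188 TPM with TGF-β1, and the groups overlapped. Adgre1, which encodes F4/80, was at 119.9, 161, 88.2, 203 and 328 TPM in controls and at 120.0, 143 and 471 TPM with TGF-β1, again with overlap. Defining markers of other cell types were mostly absent or low: 8 of 12 fibroblast, 7 of 10 endothelial, 8 of 11 neutrophil, 6 of 11 lymphocyte, 4 of 10 dendritic and 7 of 9 mast cell markers were at 0 in all 8 libraries. The summed level of the endothelial markers ran from 28.7 to 78.5 TPM in controls and from 1.51 to 43.5 TPM with TGF-β1, and that of the neutrophil markers from 1.15 to 72.8 and from 7.74 to 13.4 TPM. The dendritic sum ran from 0.22 to 18.6 and from 0.17 to 19.1 TPM. The lymphocyte sum was 23 TPM in control 2 and 53 TPM in TGF-β1 library 3, and at most 0.6 TPM in the other libraries. The fibroblast sum, 2650 to 5730 TPM in controls and 4110 to 5350 TPM with TGF-β1, came from S100a4, the 1 member tested, which macrophages also express.

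Between 8023 and 10307 genes reached 1 TPM in a knockout library. The correlation of log2(TPM + 1) across tested genes was 0.677 to 0.785 between controls (median 0.724), 0.709 to 0.771 between TGF-β1 libraries (median 0.741) and 0.638 to 0.813 between the groups (median 0.718). The labels speak both of single-cell sequencing and of a column kit on a cell suspension, so the number of cells behind a library is open to doubt. All p-values therefore measure the spread between libraries only, which may be technical, and a smaller share of expressing cells cannot be told apart from less RNA per cell.

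At an adjusted p under 0.05, 1 of 12158 tested genes was called in the knockout (limma with Benjamini-Hochberg adjustment; 0.00823%), and it was lower. No gene was called higher. At an unadjusted p under 0.05, 453 genes were higher (3.73% of those tested) and 268 lower (2.2%) and 721 in all (5.93%). For 371 genes all 3 TGF-β1 libraries lay above all 5 controls (3.05%), and for 224 all 3 lay below them (1.84%), 4.89% together. The median difference over all tested genes was 0.07 on the log2(TPM + 1) scale, a scale that understates the change of low genes; quantile normalization moved it to -0.06. Leaving out 1 library changed the calls: 6 genes were called higher and 2 lower without control 1, 4 higher and 6 lower without TGF-β1 library 1, 3 higher without library 2, 2 higher without library 3, 1 in each direction without control 3, and none without control 2 or without control 4 (limma, all at adjusted p under 0.05). All values below are therefore descriptions of 8 libraries.

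The share of genes under an unadjusted p of 0.05 differed by level. It was 4.64% of the 4829 genes with a mean under 10 TPM over the 8 libraries, 5.64% of 5694 genes from 10 to 100 TPM, 9.78% of 1523 genes from 100 to 1000 TPM and 24.1% of the 112 genes at 1000 TPM or more. The median standard error of a difference was 1.05, 1.18, 0.47 and 0.29 in the same classes. Abundant genes were thus measured with a much smaller error than low ones.

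**Figure D1:**
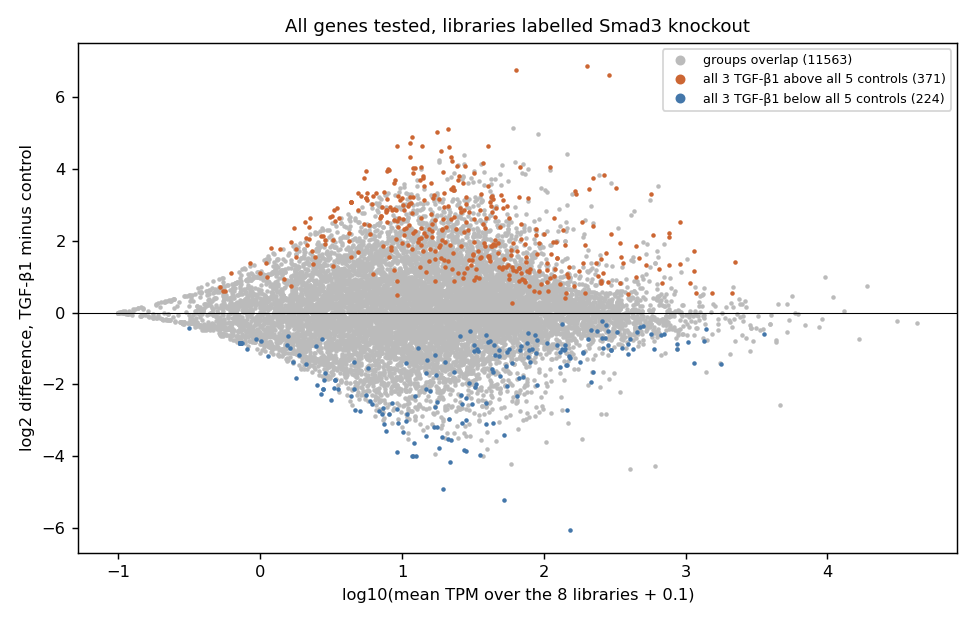
Each point is 1 of 12158 tested genes, with its mean level over the 8 knockout libraries on the horizontal axis (log10) and its difference between 3 TGF-β1 and 5 control libraries on the vertical axis (log2). The 371 genes whose TGF-β1 libraries all lie above the controls and the 224 whose libraries all lie below them are coloured, and the cloud narrows towards abundant genes.

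The 12 genes with the largest positive difference by the rule for named genes were Ch25h, Hpgd, C1qa, Btg2, Depdc1b, Ambp, Ckap2, Gpr160, Dennd1c, Nicn1, Sat2 and Rapsn. The rule asks for a symbol that is no clone name, a mean of 10 TPM or more in 1 group, groups that do not overlap and an unadjusted p under 0.01, and 52 genes met it. The differences of the 12 ran down to 4.17 at Rapsn, with Prss16 just outside at 4.01. On the lower side 23 genes met the rule, and the 12 largest negative differences ended at -3.01 with Agfg1, with Ilvbl just outside at -2.96.

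Ch25h (ENSMUSG00000050370, chromosome 19) showed the largest positive difference among them. It encodes cholesterol 25-hydroxylase, which makes the oxysterol 25-hydroxycholesterol and is known as an interferon-responsive macrophage gene. Ch25h was at 0.11, 0.11, 0, 20.2 and 18.5 TPM in controls 1 to 5 and at 182, 1062 and 337 TPM in TGF-β1 libraries 1 to 3. Even the lowest TGF-β1 library lay far above controls 4 and 5, and the other 3 controls were at or near 0. The log2 difference was 6.86 ± 1.32 (SE; limma adjusted p = 0.108), with adjusted p from 0.0193 to 0.817 over 20 alternatives, under 0.05 in 2 of them (a pseudocount of 10, and quantile normalization). The value in wild type, a comparison that shares no library with this one, was 7.23 ± 1.21 (limma adjusted p = 0.00846).

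Hpgd, the dehydrogenase that inactivates prostaglandin E2, was at 0.03, 0, 0, 0 and 0.15 TPM in controls and at 220.1, 21.9 and 263 TPM in TGF-β1 libraries 1 to 3. It was practically silent in every control and present in every TGF-β1 library, lowest in library 2. Its difference was 6.73 ± 1.49 (limma adjusted p = 0.265), and 4.45 without the 3 libraries with Smad3.

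The C1q genes, which encode the A, B and C chains of the complement recognition protein C1q, lie next to each other on chromosome 4, and all 3 lay above the controls. C1qa was at 0, 44.6, 0.34, 32.2 and 0.05 TPM in controls 1 to 5 and 803, 85 and 1339 TPM in TGF-β1 libraries 1 to 3. C1qb was at 262, 383, 728, 311 and 123 TPM without and 1398, 1634 and 2452 TPM with TGF-β1, and C1qc at 50.8, 205, 253, 128 and 74.5 TPM without and 785, 1151 and 1900.3 TPM with TGF-β1. In each of the 3 genes every TGF-β1 library lay above every control, and library 3 was the highest. In the controls the chains were not balanced: C1qa was at or near 0 in controls 1, 3 and 5, where C1qb and C1qc were present. The differences were 6.61 ± 1.69, 2.52 ± 2.01 and 3.30 ± 1.13, with limma adjusted p of 0.363, 0.925 and 0.688. For C1qa it was 3.77 without the 3 libraries with Smad3. The wide error of C1qb is the pooled one of all 17 libraries, and its wild-type controls ranged from 1.25 to 423 TPM. Of the 8 complement genes tested 5 had a positive difference (median 0.78, but 0.32 without control 2 and 1.96 without the 3 libraries with Smad3). The 3 that did not overlap between groups were these C1q genes, and every other tested member overlapped. Over all tested genes 3.05% lay above all controls. The mean level of the list takes in the C1q genes, and a mean of the other members alone was not computed.

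The sequence upstream of the start is shown for genes of this group and for Cx3cr1, described below, since their TGF-β1 libraries all stood clear of the controls and their promoters can be set beside the DNA motifs of the pathway. Sequences are from RefSeq (GRCm38.p6), where 5 of 6 genes looked up matched, and C1qa is named only. Each line gives the 250 bases before the start, 5′ to 3′ on the gene's strand, and capitals mark CAGAC, the core that Smad3 and Smad4 are known to bind, and GAGGAA, a core found in sites of the macrophage factor PU.1, on either strand (GTCTG and TTCCTC on the other strand).
C1qb, chr4:136886201-136886450, minus strand: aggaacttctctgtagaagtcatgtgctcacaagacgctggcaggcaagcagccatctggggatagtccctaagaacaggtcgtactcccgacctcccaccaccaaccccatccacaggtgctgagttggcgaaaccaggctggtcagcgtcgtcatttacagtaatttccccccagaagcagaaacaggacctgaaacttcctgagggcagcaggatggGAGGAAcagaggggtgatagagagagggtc
C1qc, chr4:136892915-136893164, minus strand: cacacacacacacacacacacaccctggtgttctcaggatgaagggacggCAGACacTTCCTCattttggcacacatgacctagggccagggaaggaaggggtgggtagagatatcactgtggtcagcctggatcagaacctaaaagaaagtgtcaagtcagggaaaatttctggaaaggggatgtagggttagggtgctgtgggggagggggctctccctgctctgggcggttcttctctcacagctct
Ch25h, chr19:34475149-34475398, minus strand: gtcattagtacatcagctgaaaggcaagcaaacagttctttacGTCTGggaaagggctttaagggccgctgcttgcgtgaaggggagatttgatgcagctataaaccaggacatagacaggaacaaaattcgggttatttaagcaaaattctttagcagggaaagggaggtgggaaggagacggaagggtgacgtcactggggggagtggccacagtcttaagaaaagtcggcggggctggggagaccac
Hpgd, chr8:56294302-56294551, plus strand: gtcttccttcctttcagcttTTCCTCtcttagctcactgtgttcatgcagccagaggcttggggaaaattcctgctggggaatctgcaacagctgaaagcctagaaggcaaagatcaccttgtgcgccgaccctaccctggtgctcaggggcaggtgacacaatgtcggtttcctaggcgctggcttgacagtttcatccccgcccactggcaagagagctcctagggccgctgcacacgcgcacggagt
Cx3cr1, chr9:120068297-120068546, minus strand: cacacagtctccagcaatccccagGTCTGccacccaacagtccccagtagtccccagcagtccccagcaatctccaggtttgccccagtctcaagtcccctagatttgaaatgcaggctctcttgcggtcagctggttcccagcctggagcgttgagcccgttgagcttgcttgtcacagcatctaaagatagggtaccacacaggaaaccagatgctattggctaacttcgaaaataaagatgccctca
CAGAC or its complement occurred once in the windows of C1qc, Ch25h and Cx3cr1 and in none of C1qb and Hpgd. Among all 32851 promoter windows of the same length in the table, 42.2% held it. GAGGAA or its complement occurred once in C1qb, C1qc and Hpgd, against 23.3% of all windows, and no marked match overlapped another. A match describes letters in these windows and is not evidence of binding.

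**Figure D2:**
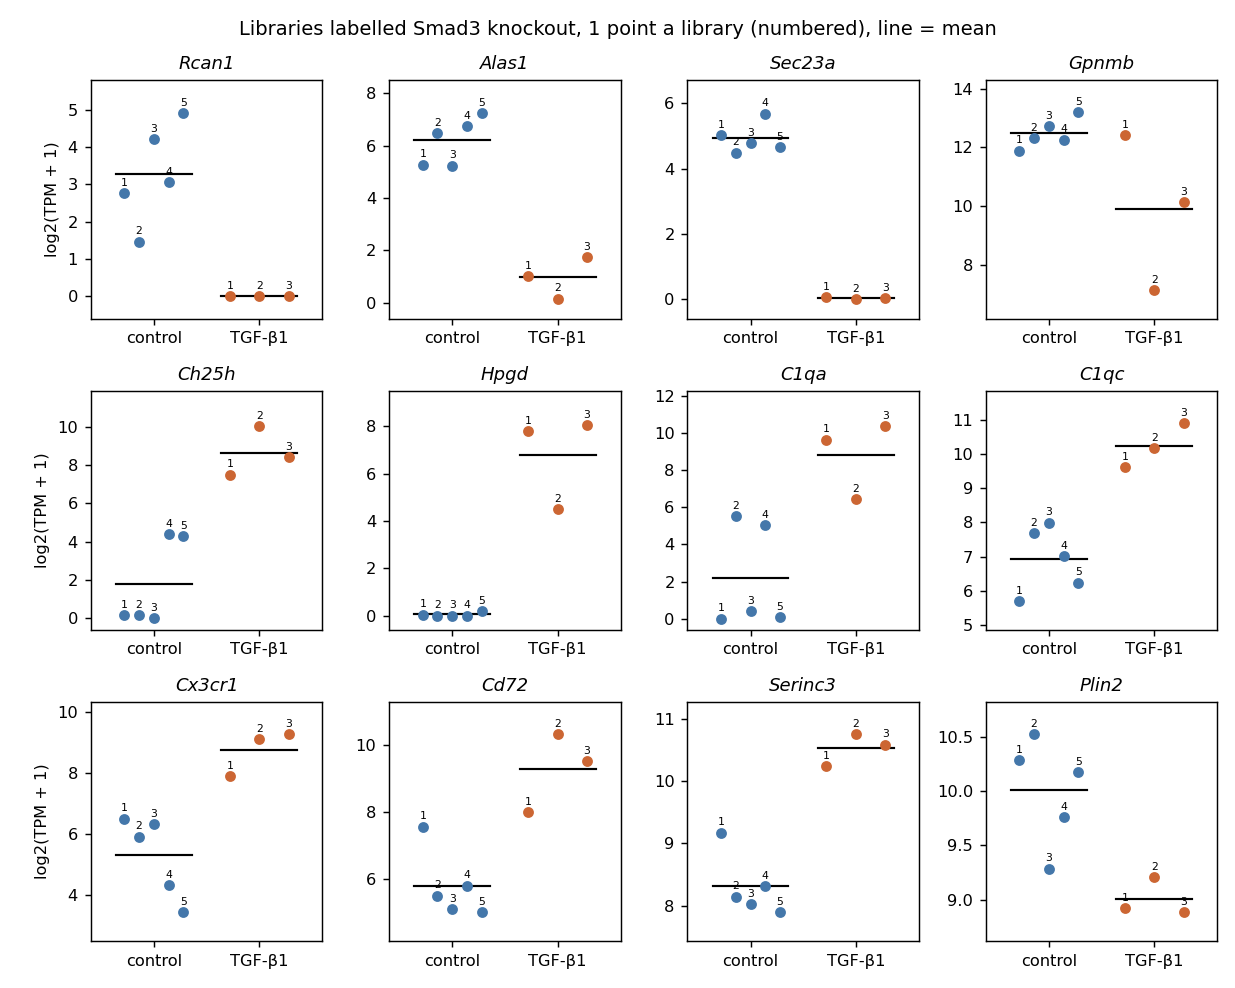
Level of 12 genes in each knockout library as log2(TPM + 1), with 1 numbered point a library and a line at the group mean (n = 5 controls, n = 3 TGF-β1). Rcan1, Alas1 and Sec23a are present in all controls and at or near 0 with TGF-β1, Hpgd is the reverse, and in Gpnmb TGF-β1 library 1 stays within the controls.

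Other genes of the upper 12 were close to absent in most controls. Gpr160, an orphan G protein-coupled receptor, was listed at 0 in all 5 controls and at 33.4, 21.6 and 18.4 TPM with TGF-β1. Btg2, an antiproliferative gene induced by p53, was at 6.08, 0, 0, 0 and 0.02 TPM in controls and at 50.5, 83 and 29.7 TPM with TGF-β1, and Ambp, which encodes the precursor of alpha-1-microglobulin and bikunin, at 0, 0.60, 0, 0 and 0 TPM without and 16.4, 43.9 and 30.1 TPM with TGF-β1. Only control 1 for Btg2 and control 2 for Ambp exceeded 0.02 TPM. Ckap2, a spindle protein, was at 0.42, 27.6, 12, 0 and 0.15 TPM in controls and at 52.3, 119.6 and 112 TPM with TGF-β1, and Depdc1b, a gene of dividing cells, at 3.68, 0, 0, 0 and 0.10 TPM without and 55, 50.8 and 29.9 TPM with TGF-β1. Dennd1c, an activator of a Rab GTPase, was at 0, 0, 0.25, 15.1 and 0.47 TPM without and 24.9, 55.7 and 74.9 TPM with TGF-β1. Nicn1 and Rapsn, which encode nicolin 1 and the acetylcholine receptor scaffold rapsyn, had controls at up to 20.7 and 40.6 TPM, in 1 control for Nicn1 and in 2 for Rapsn, and the lowest TGF-β1 library of each, at 23.7 and 50.5 TPM, was close to these. Sat2, a paralog of the polyamine acetyltransferase gene, was at 0.10, 0.35, 0, 0.47 and 0.45 TPM without and 30.4, 49.4 and 9.16 TPM with TGF-β1. The log2 differences of these 9 genes ran from 4.17 to 5.10, and no limma adjusted p was below 0.151.

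The genes named for a large negative difference were expressed in every control. The naming rule fixes this in part, since it admits only genes whose controls all lie above the TGF-β1 libraries. Alas1, the rate-limiting enzyme of heme synthesis outside red cells, was at 37.7, 88.6, 36.7, 107 and 149 TPM in controls 1 to 5 and at 1.02, 0.12 and 2.38 TPM in TGF-β1 libraries 1 to 3. Its difference was -5.22 ± 1.19 (limma adjusted p = 0.299; 0.0464 under quantile normalization, and 0.0464 to 0.69 over 20 alternatives). Sec23a, a coat protein of vesicles leaving the endoplasmic reticulum, was at 31.8, 21.4, 26.3, 50.5 and 24.2 TPM in controls and at 0.04, 0 and 0.02 TPM with TGF-β1. Every control of both genes exceeded 20 TPM, and every TGF-β1 library was near 0.

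Mob3c, a MOB-family kinase partner, and Ctdp1, a phosphatase of the RNA polymerase II tail, had the same pattern. Mob3c was at 12.9, 30.7, 8.43, 18.7 and 22.7 TPM without and 0.02, 0.04 and 0.36 TPM with TGF-β1, and Ctdp1 at 24.1, 6.99, 16.2, 20.5 and 26.7 TPM without and 0.04, 0 and 0.46 TPM with TGF-β1. Rcan1, an inhibitor of calcineurin, was at 5.77, 1.76, 17.4, 7.37 and 29.1 TPM in controls and listed at 0 in all 3 TGF-β1 libraries. The log2 differences were -4.0 ± 1.28, -3.99 ± 1.13 and -3.28 ± 0.73, with limma adjusted p of 0.628, 0.526 and 0.265. Wild-type macrophages hardly expressed Rcan1, with 0 to 2.13 TPM in controls. Mob3c was at 0.12, 22.4, 0.27, 27.4 and 1.54 TPM in wild-type controls 1 to 5, so near 0 in some without TGF-β1.

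In further genes of the lower 12, TGF-β1 library 1 or 3 kept part of the level. Cwc27, a cyclophilin of the spliceosome, was at 38.8, 36.4, 36.7, 36.9 and 55.3 TPM in controls and at 22.3, 0 and 0.03 TPM with TGF-β1. Riox2, a ribosomal oxygenase, was at 66.1, 142, 60.5, 43.5 and 64.2 TPM without and 42.5, 0.97 and 2.32 TPM with TGF-β1, and Mcrip2 at 15.6, 48.2, 14.3, 36 and 39.6 TPM without and 0.06, 0 and 13.3 TPM with TGF-β1. Library 1 of Riox2 and library 3 of Mcrip2 lay just under the lowest control, and library 2 was below 1 TPM in all 3 genes. Rab4a (early endosome recycling), St3gal1 (a sialyltransferase) and Agfg1 were at most at 2.84, 1.68 and 3.48 TPM with TGF-β1, against controls from 11.6, 6.04 and 3.83 TPM upward. Cwc27, Rab4a, Riox2 and Dennd1c overlap another protein-coding gene in the annotation, and the strand setting of the counting is not stated, so their reads may be shared.

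Cd72 and Serinc3, not among those 12 and chosen after their values were seen, came closest to a call on the upper side. Cd72, an inhibitory lectin receptor of B cells and macrophages, was at 189, 44.8, 33.6, 55.4 and 31.4 TPM in controls 1 to 5 and at 255, 1264 and 727 TPM in TGF-β1 libraries 1 to 3 (log2 difference 3.46 ± 0.59, limma adjusted p = 0.0608). Control 1 came within reach of TGF-β1 library 1, and no other control exceeded 55.4 TPM. Without control 1 the difference was 3.90 (limma adjusted p = 0.00247), without TGF-β1 library 1 it was 4.10 (0.0127), without the 3 libraries with Smad3 4.32 (0.0342), and over 20 alternatives the adjusted p ran from 0.00247 to 0.628, under 0.05 in 5. Serinc3, a membrane protein known for restricting retroviral particles, was at 576, 282, 261, 317 and 237 TPM without and 1206, 1719.6 and 1535 TPM with TGF-β1 (log2 difference 2.21 ± 0.41, limma adjusted p = 0.1; 0.0202 without control 1, and 0.0202 to 0.628 over 20 alternatives). Cd72 overlaps Tesk1 on the other strand, so its reads may be shared.

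Receptors, Smads and inhibitors of the TGF-β pathway showed little order. Of 18 tested members 13 had a positive difference (median 0.57, and -0.05 without the 3 libraries with Smad3), none was called, and 1 did not overlap in each direction. Over all tested genes 3.05% lay above all controls and 1.84% below them, so counts this small are near the share of all genes. Tgfbr1, the type I receptor, was at 66.7, 34.2, 18.7, 53.6 and 26.3 TPM in controls and at 72.4, 42.8 and 47.5 TPM with TGF-β1. Tgfbr2, the type II receptor, was at 0.74, 6.39, 19.1, 0.13 and 8.0 TPM without and 13.2, 12 and 16.2 TPM with TGF-β1, and both overlapped between groups. Smad2, the remaining receptor-activated Smad of the pathway, was at 37.8, 28.8, 43.4, 48.3 and 1.19 TPM in controls 1 to 5 and 17.7, 0.04 and 41.4 TPM in TGF-β1 libraries 1 to 3. TGF-β1 library 2, the 1 TGF-β1 library with Smad3 under 1 TPM, was thus at 0.04 TPM for Smad2 as well, and control 5 was at 1.19. Smad2 was also near 0 in wild-type libraries, at 0.06 TPM in control 2 and 0.02 TPM in TGF-β1 library 4. In knockout TGF-β1 library 2, 11.9% of genes of 10 to 50 TPM were listed at 0 and 26.4% lay below 1 TPM. Whether Smad2 was absent from that library or missed in it was not tested. Smad4, the common partner, was at 1.34, 0.64, 0.90, 4.67 and 0.22 TPM without and 2.33, 0.12 and 11.1 TPM with TGF-β1, with no separation. The ligand gene Tgfb1 was at 1.49, 0.59, 5.66, 0.05 and 0.02 TPM without and 3.03, 5.49 and 0.30 TPM with TGF-β1.

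The 2 members that separated were Smad6 and Nrros. Smad6, an inhibitory Smad, was at 0.03, 2.04, 1.38, 4.95 and 13.4 TPM in controls and at 0 in all 3 TGF-β1 libraries (log2 difference -1.86 ± 0.89, limma adjusted p = 0.832), with control 1 also near 0. Nrros, which anchors latent TGF-β1 on macrophages, was at 117, 61, 98.8, 89.1 and 155 TPM without and 172, 198 and 268 TPM with TGF-β1 (difference 1.07 ± 1.03; named after its values were seen). Smad7, the other inhibitor, was at 0.03, 0, 3.04, 5.84 and 0.96 TPM without and 0.01, 35.7 and 1.66 TPM with TGF-β1, high in TGF-β1 library 2 alone.

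Target and feedback genes of TGF-β had a positive difference in 15 of 20 tested members (median 0.44, against 0.07 over all genes), and none was called. The median was 1.18 without TGF-β1 library 1, 0.16 without library 3 and 0.08 without the 3 libraries with Smad3. Tgfbi, a secreted matrix protein named for its induction by TGF-β, was at 530.0, 411, 637, 367 and 47.1 TPM in controls 1 to 5 and at 817, 1992 and 1329.8 TPM in TGF-β1 libraries 1 to 3. Its groups did not overlap, and control 5 lay far under the other controls (log2 difference 2.10 ± 0.88, limma adjusted p = 0.775). In wild type the difference was -1.01 ± 0.81 (limma adjusted p = 0.741), and the difference between genotypes was not called (limma adjusted p = 0.997). Cdkn1a, which encodes the cell cycle inhibitor p21, was at 167, 298, 245, 319 and 93.9 TPM without and 364, 2261 and 955 TPM with TGF-β1. Its lowest TGF-β1 library, library 1, was just above control 4 (difference 2.16 ± 0.64, limma adjusted p = 0.526). Pmepa1, a feedback inhibitor, was at 5.79, 4.87, 0, 0.31 and 0.01 TPM without and 4.43, 3.10 and 44.7 TPM with TGF-β1, and Id1 at 349, 189.7, 209, 95.8 and 0.49 TPM without and 275, 404 and 127 TPM with TGF-β1, and both overlapped.

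Acta2 and most matrix genes of myofibroblasts were at or near 0. Acta2, the smooth muscle actin that defines the transition, was at 8.12, 0.08, 0.06, 0.03 and 0.09 TPM in controls 1 to 5 and at 0.06, 0 and 0.05 TPM in TGF-β1 libraries 1 to 3, so that only control 1 exceeded 0.09 TPM, and the gene did not pass the filter. Of 20 contractile genes 9 were tested and 5 were at 0 in all 8 libraries, and of 29 matrix genes 4 were tested and 18 were at 0 in all 8. All 20 contractile genes together, tested or not, summed to 3410 to 5470 TPM in controls and 2490 to 4120 TPM with TGF-β1, with Vim the most abundant. Among those tested, Tpm4, a tropomyosin of non-muscle cells, was at 307, 392, 399.6, 311 and 567 TPM without and 492, 930.5 and 521 TPM with TGF-β1, and Vim, the intermediate filament vimentin, at 4589, 3552, 3842, 2813 and 2893 TPM without and 3079.7, 2049.7 and 1269 TPM with TGF-β1, with overlap in both. Of the enzymes that modify collagen, the prolyl hydroxylase P4ha1 was at 37.5, 66.3, 109, 15.2 and 36.8 TPM without and 51.8, 324 and 153 TPM with TGF-β1 and the lysyl hydroxylase Plod1 at 30.0, 37.2, 34.8, 33.5 and 24 TPM without and 44.4, 119.8 and 87.2 TPM with TGF-β1. Plod1 did not overlap between groups (difference 1.27 ± 0.90, limma adjusted p = 0.9).

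Genes that mark microglia and depend on TGF-β there had a positive difference in 9 of 10 tested members, with a median difference of 1.79 against 0.07 over all genes tested. At an unadjusted p under 0.05, 5 of the 10 were higher and none lower, against 3.73% and 2.2% of all tested genes, and none was called. The mean level of the list lay between 3.0 and 4.59 in controls and at 5.44, 5.94 and 6.61 in TGF-β1 libraries 1 to 3, with no overlap. Cx3cr1, the fractalkine receptor, was at 89.8, 59.6, 79.9, 19 and 9.86 TPM in controls 1 to 5 and 237, 552 and 612 TPM in TGF-β1 libraries 1 to 3 (difference 3.45 ± 1.2, limma adjusted p = 0.699). Csf1r, the M-CSF receptor, was at 536, 273, 363, 299 and 232 TPM without and 563, 1020.0 and 944 TPM with TGF-β1 (difference 1.32 ± 0.39, limma adjusted p = 0.527). Both receptors separated the groups, Csf1r only narrowly at TGF-β1 library 1.

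The most specific microglia genes were not shared by all TGF-β1 libraries. Tmem119, a membrane protein of resident microglia, was at 0.20, 0.09, 0, 0 and 0 TPM in controls and at 0.38, 23 and 170.3 TPM in TGF-β1 libraries 1 to 3. P2ry12, the ADP receptor, was at 8.47, 0, 0, 0 and 0 TPM without and 0, 167 and 81.2 TPM with TGF-β1. Both were thus clearly expressed in TGF-β1 libraries 2 and 3 and not in library 1. Smad3 transcript was at 6.18 TPM in library 1, 0.01 TPM in library 2 and 22.3 TPM in library 3. A relation of these genes to it was not tested. Fcrls was at 55.1, 88.7, 18.1, 14.5 and 54.3 TPM without and 323, 563 and 17.9 TPM with TGF-β1, present in libraries 1 and 2 but not above the controls in library 3. The defining factor Sall1 did not reach the filter. The median of the list was 1.65 without the 3 libraries with Smad3, and 2.80 in wild type.

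**Figure D3:**
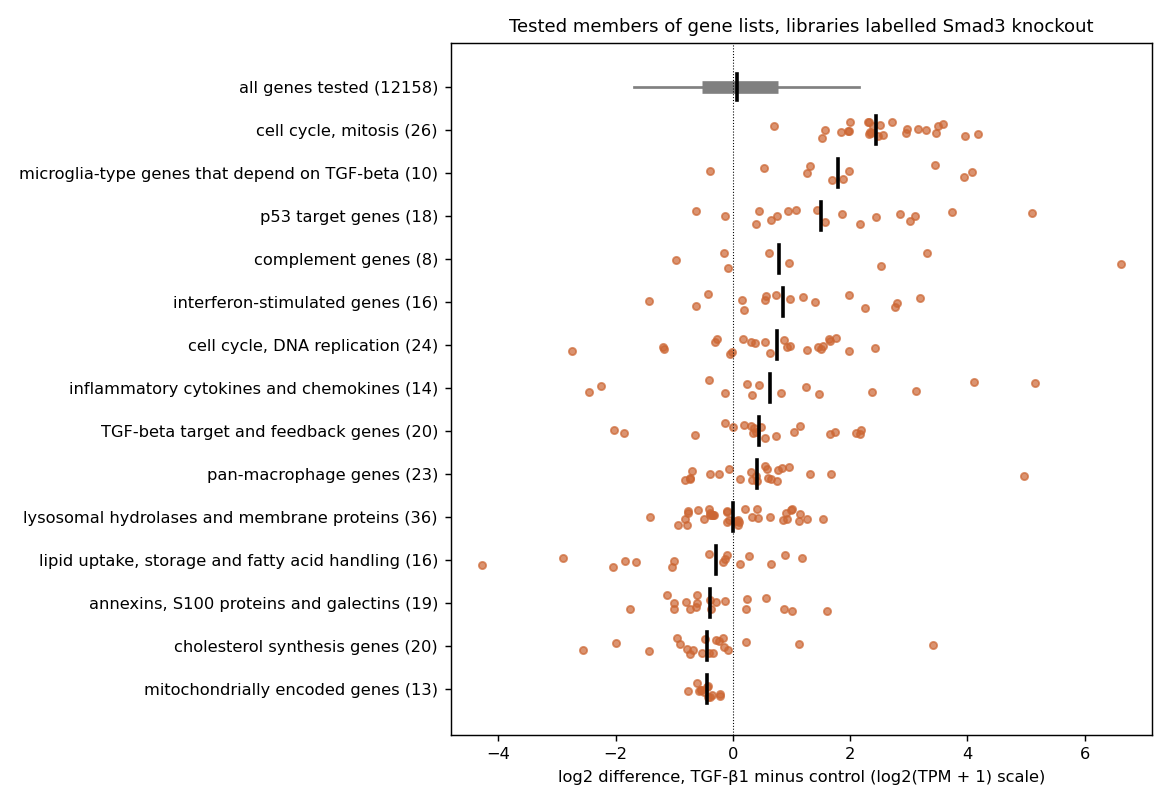
Each orange point is a tested member of a gene list, placed by its log2 difference between TGF-β1 and control in the knockout libraries, with a black bar at the list's median. The grey row shows all 12158 tested genes (thick bar from the 25th to the 75th percentile, thin line from the 5th to the 95th). All mitosis genes lie above 0 and all mitochondrially encoded genes below it, with medians of 2.43 and -0.44.

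Mitosis genes had the largest median of all lists, with 1 control apart from the other 4. All 26 tested members had a positive difference (median 2.43), against 53.1% of all tested genes. Of the 26, 8 were higher at an unadjusted p under 0.05, against 3.73% of all tested genes, and none was called. The mean level of the list was 7.45, 7.64 and 7.68 in TGF-β1 libraries 1 to 3. In controls it was 7.91 in library 1 and 5.10, 3.43, 3.67 and 4.95 in libraries 2 to 5. Control 1 thus lay above all 3 TGF-β1 libraries and the other 4 controls far below them, and without control 1 the median difference was 3.16. The median was 2.09 without the 3 libraries with Smad3. What set control 1 apart was not tested.

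Single members showed the same split. Ccnb1, the cyclin that drives entry into mitosis, was at 985, 78.8, 7.85, 56.6 and 216 TPM in controls 1 to 5 and 521, 543 and 906 TPM with TGF-β1. Cdk1, its kinase, was at 855, 256, 245, 64.9 and 107 TPM without and 718, 908 and 822 TPM with TGF-β1, Kif20a, a mitotic kinesin, at 206, 57.6, 0.14, 17 and 0.14 TPM without and 114, 262 and 230.5 TPM with TGF-β1, and Cenpf, a kinetochore protein, at 146, 0.11, 0, 0.02 and 33.1 TPM without and 74.8, 91.4 and 152 TPM with TGF-β1. Control 1 lay inside or above the TGF-β1 range in all 4. Top2a, which untangles DNA for division, separated the groups narrowly, at 214, 36.3, 42.5, 21 and 40.3 TPM without and 262, 262 and 216 TPM with TGF-β1, and Mki67, the proliferation marker Ki-67, at 25.9, 9.85, 31.5, 15.5 and 40.4 TPM without and 58.3, 77.9 and 67.6 TPM with TGF-β1.

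DNA replication genes divided the controls in another way. Of 24 tested, 17 had a positive difference (median 0.75), and their mean level was 5.45, 5.68 and 5.27 in TGF-β1 libraries 1 to 3. Controls 3 and 4, at 6.55 and 6.30, lay above all TGF-β1 libraries, and controls 1, 2 and 5, at 4.29, 3.65 and 3.57, lay below them. Controls 3 and 4, high in replication genes, were the 2 lowest in mitosis genes. Rrm1, a subunit of ribonucleotide reductase, separated the groups at 90.9, 41.8, 63.5, 102 and 27.1 TPM without and 139.8, 282 and 157 TPM with TGF-β1 (difference 1.64 ± 0.59, limma adjusted p = 0.713). Tk1, thymidine kinase, was at 52.5, 15.9, 165, 42.8 and 7.28 TPM without and 77.6, 511 and 164 TPM with TGF-β1 and did not.

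Abundant genes, the best measured, included several of the cytoskeleton and chromatin. Of the 140 genes whose higher group mean was 1000 TPM or more, 17 were higher and 21 lower at an unadjusted p under 0.05, and none was called. The shares over all tested genes were 3.73% and 2.2%. H2afz, a histone variant, was at 977, 477, 744, 482 and 432 TPM in controls and at 1679, 2991 and 1447 TPM with TGF-β1 (difference 1.71 ± 0.41, limma adjusted p = 0.309). Tuba1b, an alpha-tubulin, was at 2543, 1526, 1125, 823 and 1120.2 TPM without and 2898, 3760.2 and 3953 TPM with TGF-β1 (difference 1.41 ± 0.36, limma adjusted p = 0.343). Tmsb10, an actin-binding thymosin, was at 1075, 2389, 1758, 1024 and 1189.6 TPM without and 747, 541 and 381 TPM with TGF-β1 (difference -1.39 ± 0.33, limma adjusted p = 0.306). All 3 separated the groups; they were chosen after their values were seen, and control 1 was the control nearest to TGF-β1 for H2afz and Tuba1b.

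Target genes of p53, the transcription factor that answers DNA damage, had a positive difference in 16 of 18 tested members (median 1.51). Of the 18, 7 were higher and none lower at an unadjusted p under 0.05, against 3.73% and 2.2% of all tested genes. None was called. The mean level was 2.59 to 3.70 in controls and 4.31, 5.73 and 4.66 in TGF-β1 libraries 1 to 3. The groups did not overlap, and library 2 stood highest. Fas, a death receptor, was at 0, 0, 1.73, 0 and 0 TPM in controls and at 1.82, 92.7 and 15.3 TPM with TGF-β1. Bax, which permeabilises mitochondria in apoptosis, was at 533, 312, 336, 381 and 250.3 TPM without and 487, 1157 and 714 TPM with TGF-β1, and Ccng1, cyclin G1, at 73.8, 67, 27, 18.1 and 22.5 TPM without and 78.3, 385 and 73.2 TPM with TGF-β1. Libraries 2 and 3 of Bax and libraries 1 and 2 of Ccng1 lay above all controls, and Bbc3, which encodes PUMA, at 0, 0, 18.2, 7.28 and 0 TPM without and 9.86, 52.8 and 12.6 TPM with TGF-β1, overlapped. Cdkn1a and Btg2, given above, belong to this list too. The median was 0.88 with a pseudocount of 10 and 2.26 without the 3 libraries with Smad3.

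**Figure D4:**
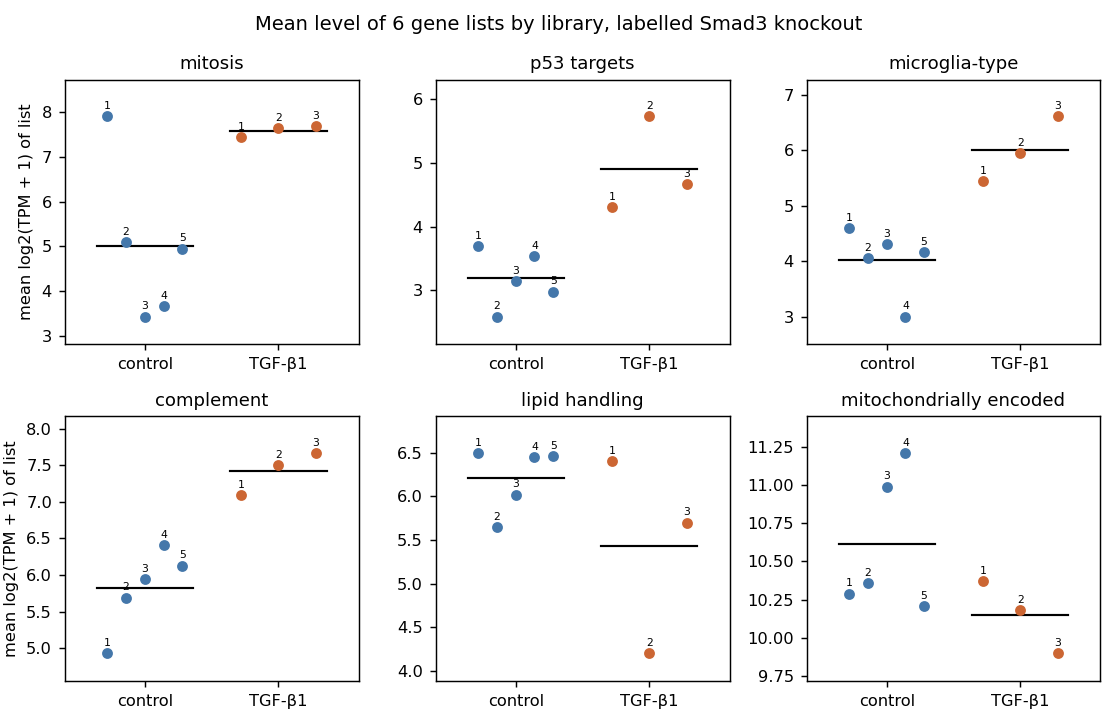
Mean log2(TPM + 1) of the tested members of 6 lists in each knockout library, numbered within its group (n = 5 controls, n = 3 TGF-β1), with a line at the group mean. Control 1 is at 7.91 for mitosis genes, beside the TGF-β1 libraries at 7.45 to 7.68, while the p53, microglia-type and complement lists leave a gap between all controls and all TGF-β1 libraries. The complement mean takes in the 3 C1q genes, the only tested members of that list whose groups did not overlap.

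Genes of lipid uptake and storage lay lower with TGF-β1 for the most part. Of 16 tested, 11 had a negative difference (median -0.29, and -1.73 without the 3 libraries with Smad3). At an unadjusted p under 0.05, 5 were lower and none higher, against 2.2% and 3.73% of all tested genes, and none was called. Plin2, the coat protein of lipid droplets, was at 1249.7, 1474, 624, 868 and 1157 TPM in controls 1 to 5 and 484, 589 and 471 TPM in TGF-β1 libraries 1 to 3, without overlap (difference -1.01 ± 0.32, limma adjusted p = 0.627). Slc27a1, a fatty acid transporter, was at 294, 409, 471, 253 and 403 TPM without and 251, 117 and 179 TPM with TGF-β1 , with library 1 at the level of the lowest control. Fabp5, a fatty acid chaperone, was at 128, 415, 2129, 559 and 1318 TPM without and 292, 0.70 and 62.4 TPM with TGF-β1, lowest in library 2 but within the controls in library 1.

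Lpl, lipoprotein lipase, was at 2237, 2135, 775, 763 and 3089 TPM in controls and at 1558, 466.3 and 159.7 TPM with TGF-β1, and Cd36, a scavenger receptor that imports fatty acids, at 396, 361, 97.8, 199 and 861 TPM without and 283, 38.8 and 52 TPM with TGF-β1. In both, libraries 2 and 3 lay below all controls and library 1 lay among them. Hilpda, an inhibitor of the lipase of lipid droplets, was at 198, 44.3, 13.4, 84.6 and 219 TPM without and 48.5, 0 and 20.2 TPM with TGF-β1. Gpnmb, a glycoprotein of lipid-laden macrophages, was at 3804, 5145, 6814, 4914 and 9399 TPM without and 5439, 141 and 1124 TPM with TGF-β1 (difference -2.58 ± 0.69, limma adjusted p = 0.438). Without TGF-β1 library 1, one of the libraries with Smad3 transcript, the Gpnmb difference was -3.84 (limma adjusted p = 0.00942; 0.00036 to 1 over 20 alternatives). It was -1.21 without library 2 (limma adjusted p = 1) and -5.27 without the 3 libraries with Smad3, so the size rests on single libraries.

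Cholesterol export and oxysterol genes had a higher mean of log2(TPM + 1) with TGF-β1, 4.68 to 4.78 against 3.53 to 4.34 in controls, although 6 of 12 tested members had a positive difference (median 0.36) and none was called. Ch25h, given above, is a member and the only one whose TGF-β1 libraries all lay above the controls. With a log2 difference of 6.86 it weighs heavily on this mean, which was not computed without it. Nr1h3, which encodes the oxysterol receptor LXRα, was at 23.3, 27.1, 21, 7.17 and 61.1 TPM in controls and at 4.46, 0 and 0 TPM with TGF-β1, without overlap (difference -3.76 ± 1.34, limma adjusted p = 0.709). Of 20 cholesterol synthesis genes tested 17 had a negative difference (median -0.44), but their mean level, 2.57 to 4.82 in controls and 4.86, 2.33 and 4.19 with TGF-β1, overlapped, and over the alternatives the median ran from -1.83 without the 3 libraries with Smad3 to 0.42 without TGF-β1 library 2. The low libraries were control 2 and TGF-β1 library 2, the 2 knockout libraries with the largest share of genes listed at 0. Insig1, which retains the sterol sensor in the endoplasmic reticulum, was at 21.8, 14.8, 21.2, 90.2 and 46.2 TPM without and 37.5, 0.13 and 2.70 TPM with TGF-β1, and Mvk, mevalonate kinase, at 0.06, 0.03, 27.3, 20.4 and 0 TPM without and 47.8, 73.7 and 15 TPM with TGF-β1.

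Lysosomal genes split evenly, with 18 of 36 tested members positive, against 53.1% of all tested genes. Of the 36, 4 were higher and 3 lower at an unadjusted p under 0.05, against 3.73% and 2.2% of all tested genes. None was called. Man2b1, lysosomal alpha-mannosidase, was at 154, 182, 176, 258 and 228 TPM in controls and at 389.7, 884 and 548 TPM with TGF-β1 (difference 1.54 ± 0.45, limma adjusted p = 0.526), and Lamp2, a lysosomal membrane protein, at 244, 307, 434, 342 and 308 TPM without and 561, 790.4 and 593 TPM with TGF-β1. Both separated the groups. On the lower side Ctsb, the protease cathepsin B, was at 3885, 6431, 4589, 4887 and 5749 TPM without and 3952, 1964 and 3005 TPM with TGF-β1, Cd63, a tetraspanin, at 1598, 3889.8, 2707, 2609 and 2516 TPM without and 1855, 1041 and 1692 TPM with TGF-β1, and Psap, the precursor of saposins, at 2045, 1285, 1476, 1003 and 2649 TPM without and 1005, 875 and 939 TPM with TGF-β1. In these 3 genes the lowest control reached into the TGF-β1 range.

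Annexins, S100 proteins and galectins had a negative difference in 13 of 19 tested members (median -0.39). Of the 19, 4 were lower and 1 higher at an unadjusted p under 0.05, against 2.2% and 3.73% of all tested genes. None was called. Anxa2, a membrane-binding annexin, was at 1857, 1942, 1232, 1124 and 1942 TPM in controls and at 822, 922 and 976 TPM with TGF-β1, and Anxa4 at 502, 424, 396, 529.5 and 751 TPM without and 359.7, 146 and 306 TPM with TGF-β1. S100a11 was at 449.6, 352, 549.7, 296 and 530.4 TPM without and 277, 125 and 274 TPM with TGF-β1, and S100a6 at 871, 1644, 695, 505 and 627 TPM without and 685, 132 and 533 TPM with TGF-β1. Anxa2, Anxa4 and S100a11 lay below all controls, and S100a6 overlapped. Anxa6 was the member higher at an unadjusted p under 0.05, at 101, 63.3, 139.6, 37.3 and 107 TPM without and 157, 157 and 185 TPM with TGF-β1, above all controls (difference 1.02 ± 0.46, limma adjusted p = 0.818).

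Mitochondrially encoded genes, the transcripts of the mitochondrial genome, had a negative difference in 13 of 13 members (median -0.44). Of the 13, 2 were lower at an unadjusted p under 0.05, against 2.2% of all tested genes, and none was called. The median was -0.56 under upper-quartile scaling and -0.40 under quantile normalization. Controls 3 and 4 had the highest mean levels, 10.99 and 11.21, while controls 1, 2 and 5, at 10.29, 10.36 and 10.21, lay with TGF-β1 libraries 1 to 3 at 10.37, 10.18 and 9.90. Those 2 controls were also the highest in replication genes. mt-Co3, a subunit of cytochrome oxidase, was at 3246, 3309, 5622, 6482 and 7450.4 TPM without and 3312, 2995 and 2462 TPM with TGF-β1, and mt-Atp8, of ATP synthase, at 3004, 2908, 4754, 6399 and 3542 TPM without and 2638, 2729 and 2406 TPM with TGF-β1. Of these, mt-Atp8 did not overlap between groups.

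Inflammatory genes varied between libraries of both groups. Of 14 cytokines and chemokines tested 10 had a positive difference (median 0.63). At an unadjusted p under 0.05, 3 were higher, against 3.73% of all tested genes, and none was called. The mean of log2(TPM + 1) was 4.26 to 5.40 in controls and 4.94, 6.35 and 5.86 in TGF-β1 libraries 1 to 3. The summed level of all 24 listed genes, tested or not, was instead highest in control 5, at 34900 TPM against 8640 to 22600 TPM with TGF-β1. Cxcl16, a membrane chemokine and scavenger receptor, was at 399, 10.7, 179, 152 and 122 TPM in controls and at 336, 2003 and 1301 TPM with TGF-β1, Tnf at 23.9, 0, 11.7, 53.9 and 0.06 TPM without and 47.9, 307 and 125 TPM with TGF-β1, and Cxcl2, a neutrophil chemokine, at 0, 0, 45, 5.02 and 0 TPM without and 33.1, 148 and 252 TPM with TGF-β1. In each, libraries 2 and 3 lay above all controls and library 1 lay below the highest one. Other members, chosen after their values were seen, peaked in control 3: the monocyte chemokine Ccl2 was at 552 TPM there against 91.5 to 500.2 TPM with TGF-β1, and Ccl3 at 318 TPM against 68.3 to 82.4 TPM. Among 15 genes of NF-κB feedback, 8 had a positive difference (median 0.31, but 1.22 without TGF-β1 library 1 and -0.02 without control 2), and their mean level, 1.98 to 3.98 in controls and 3.23 to 4.13 with TGF-β1, overlapped. Nfkbiz, which encodes the nuclear regulator IκBζ, separated the groups at 0.24, 0.45, 7.87, 9.97 and 7.72 TPM without and 24.2, 66.4 and 58.7 TPM with TGF-β1 (difference 3.43 ± 1.15, limma adjusted p = 0.665), and Nfkbid was at 15.4, 0.05, 2.71, 40.1 and 1.5 TPM without and 27.9, 77.9 and 56.7 TPM with TGF-β1, with overlap.

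Interferon-stimulated genes stood apart in 1 TGF-β1 library. Of 16 tested 13 had a positive difference (median 0.85), but the mean level was 4.10, 6.93 and 3.03 in TGF-β1 libraries 1 to 3 against 2.54 to 4.50 in controls. Library 2 alone exceeded the controls, and without it the median was -0.04. Rsad2, the antiviral protein viperin, was at 0, 0, 8.74, 0.01 and 0 TPM in controls and at 10.7, 111 and 0 TPM with TGF-β1. Without the 3 libraries with Smad3, where library 2 is the only TGF-β1 library, its difference was 6.80 (limma adjusted p = 0.0231, and 0.0231 to 1 over 20 alternatives). Ifit2 was at 0, 0, 3.41, 0 and 0 TPM without and 5.43, 24.7 and 10.2 TPM with TGF-β1 and Stat2, a signalling factor of type I interferon, at 7.28, 5.28, 0, 9.74 and 3.95 TPM without and 21.2, 37.6 and 13.8 TPM with TGF-β1, and these 2 separated the groups. Of all tested genes, 3.05% lay above all controls.

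Further macrophage genes varied widely between controls. Aif1, which encodes the actin-bundling protein Iba1, was at 0.11, 21.9, 75.9, 0 and 0 TPM without and 46.7, 132 and 456 TPM with TGF-β1. Itgam, the integrin CD11b, was at 55.9, 3.28, 53.6, 18.7 and 82.4 TPM without and 66.8, 74.5 and 35 TPM with TGF-β1, and both overlapped between groups. Of 8 osteoclast and fusion genes tested 3 had a positive difference (median -0.53), and none was called. Acp5, the tartrate-resistant acid phosphatase, was listed at 0 in all TGF-β1 libraries and in 3 controls, with 65.3 and 133 TPM in controls 3 and 5. Dcstamp, a receptor needed for osteoclast fusion, was at 225, 122, 6.87, 145 and 0 TPM without and 390.0, 515 and 373 TPM with TGF-β1, above all controls with TGF-β1, whereas in wild type the difference was -1.40 ± 1.51 (difference between genotypes not called, limma adjusted p = 0.997). Bnip3, a hypoxia-induced mitophagy receptor, was at 35.6, 90.2, 63.6, 74.8 and 72.6 TPM without and 19.1, 17.4 and 18.3 TPM with TGF-β1, below all controls with TGF-β1. Nqo1, a quinone reductase under Nrf2, was at 71.9, 0.03, 0.57, 0 and 0.03 TPM without and 43.5, 30.9 and 31 TPM with TGF-β1, with control 1 above every TGF-β1 library.

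The same treatment in wild-type libraries gave 22 called genes of the same 12158 (limma adjusted p under 0.05; 0.181%), and the 2 comparisons share no library. Of the 13 called higher there, 12 had a positive difference in the knockout (median 1.26, against 3.25 in wild type, and 53.1% positive over all genes), and all 9 called lower had a negative one (median -0.92, against -2.20). Both sets were picked by their wild-type difference, so smaller medians in the knockout can come from that choice alone. Each TGF-β1 library was placed against the 5 knockout controls. Library 1 lay above all of them for 5 of the 13 genes and below all of them for 4 of the 9, library 2 for 10 and 9, and library 3 for 9 and 9. Over all tested genes library 1 lay above all controls for 15.8% and below all of them for 7.16%, library 2 for 20.4% and 18.3%, and library 3 for 21.9% and 11.2%.

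In knockout libraries 3 of the 13 genes called higher in wild type lay above all controls: Ch25h, Man2b1 and Laptm5. Of the 9 called lower, 4 lay below all controls: Esd, Plin2, Anxa2 and Rnh1. The shares over all tested genes were 3.05% above and 1.84% below. Laptm5, a lysosomal membrane protein of blood cells, was at 2266, 2007, 2066, 1199 and 1581 TPM in controls and at 2594, 2496 and 2695 TPM with TGF-β1 (difference 0.54 ± 0.29, and 1.5 ± 0.27 in wild type). Esd, esterase D, was at 2759, 1903, 1781, 2641 and 2211 TPM without and 1778, 504 and 621 TPM with TGF-β1 (difference -1.43 ± 0.37, and -2.21 ± 0.34 in wild type), with library 1 just below the lowest control. Without library 1 the Esd difference was -1.99 (limma adjusted p = 0.0281, and 0.0281 to 1 over 20 alternatives). Rnh1, the ribonuclease inhibitor, was at 1029, 1505, 1387, 1109 and 1108 TPM without and 967, 509.6 and 647 TPM with TGF-β1, and again library 1 was near the controls.

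Some genes called in wild type had small values in the knockout. Cd36 had a difference of -6.92 ± 0.89 in wild type and -1.83 ± 0.97 in the knockout. Trp53inp1 and Arhgef40, at 3.61 ± 0.63 and 3.25 ± 0.66 in wild type, had 0.39 ± 0.69 and 0.90 ± 0.72 in the knockout, where they reached at most 1.52 and 4.0 TPM in a library. Ctsd, the protease cathepsin D, was at 5548, 12633, 9269.9, 8631 and 11663 TPM in knockout controls 1 to 5 and 9714, 5591 and 6261 TPM with TGF-β1, a difference of -0.40 ± 0.32 against 1.98 ± 0.30 in wild type. No difference between the genotypes was called by limma over 12158 genes, at 569 genes under an unadjusted p of 0.05 (4.68%). Ctsd had the smallest p among them (limma adjusted p = 0.3; difference of effects -2.38 ± 0.44).

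**Figure D5:**
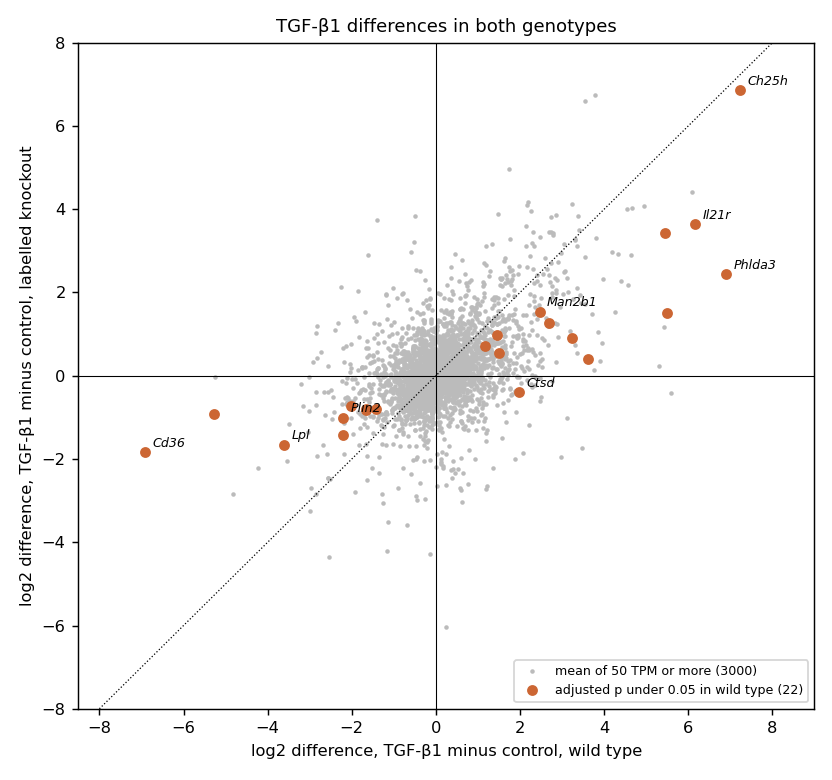
Each grey point is 1 of the 3000 tested genes with a mean of at least 50 TPM over the 17 libraries, placed by its TGF-β1 difference in wild type (horizontal, log2) and in the knockout (vertical, log2), and orange points are the 22 genes called in wild type. Most orange points lie on the same side of 0 in both genotypes but nearer to 0 in the knockout than the dotted line of equality, and Ctsd lies on opposite sides. The orange genes were picked by their wild-type difference, which alone tends to place them nearer to 0 in the knockout.

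Across the 3000 tested genes with a mean of 50 TPM or more over all libraries, the differences of the 2 genotypes correlated with r = 0.481 and rho = 0.41, and across all 12158 genes with r = 0.22 and rho = 0.185. These values are across genes, which are not independent replicates, and low genes enter them with a large error. Of the 371 genes whose knockout TGF-β1 libraries all lay above the controls, 73.3% had a positive difference in wild type (median 0.79, against 2.1 in the knockout), and of the 224 below, 31.7% (median -0.24, against -1.08), against 53.8% of all genes. These genes were picked by their knockout values, and here the medians in wild type were the smaller ones.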

How the data were processed

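Expression was measured by RNA sequencing of 17 macrophage libraries, with SMART-seq2 per the labels' protocols. The authors deposited 1 table of TPM values for 37620 genes (32897 with a symbol). FastQC, Trim Galore, RSEM and the mouse build mm9 are named in the submitters' processing notes, without versions or roles. TPM does not hold the number of reads, so sequencing depth is unknown and count models were not used. An exact 0 can be a failed estimate. None of 25 genes that every cell uses was listed at 0 in a knockout library, which does not measure failures among lower genes. For genes of 10 to 50 TPM, the share listed at 0 ran from 4.08% in knockout control 4 to 13.9% in knockout control 2. Their share below 1 TPM ran from 7.95% to 28.1% in the same libraries.

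From the deposited TPM, log2(TPM + 1) was computed, with a pseudocount of 1. The filter kept 12158 genes that reached 1 TPM in 3 libraries or more of the 17. limma 3.58.1 in R 4.3.3 was fitted to all 4 groups, which share 1 estimate of the spread, with a trend in the prior variance and no covariate. The contrasts were TGF-β1 minus control within each genotype and the difference between genotypes, with Benjamini-Hochberg adjustment over all tested genes at 0.05. The fit was tested on simulated data.

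Samples were grouped by their titles. Members, gene lists and tests were chosen with earlier results of these data known. Named genes were fixed pathway and marker genes, called genes, up to 12 genes in each direction with the largest difference among those with a mean of 10 TPM or more in 1 group, no overlap and an unadjusted p under 0.01 (clone names left out), up to 4 members of each list, and genes called in wild type. Alternatives were pseudocounts of 0.1 and 10, no filter, a filter at 5 TPM, the knockout libraries alone, upper-quartile and quantile scaling, detected genes as a covariate, a replicate block, no trend, each library left out, and libraries with over 10% of genes of 10 to 50 TPM listed at 0 left out. The alternative without libraries with Smad3 at 1 TPM or more was added after the data were seen. Promoters are RefSeq's on GRCm38.p6, not the build of the table. Overlapping genes were taken from a GENCODE annotation. Some items, the gene called in the knockout among them, are not reported here.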

Additional observations from a re-analysis of the deposited data

Results flagged for a closer look

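In 16 of 109 genes examined, 1 of the 5 knockout controls lay far from the other 4 by Dixon's test at the 95% level. For normally distributed values chance gives this in about 1 group in 20. That rate does not hold where most controls are at or near 0, since a single detected control is then flagged easily. The number flagged is therefore not evidence of an excess. For 12 genes that control was high where the others were at or near 0 or lower: Smad3 at 1.93 TPM, Acta2 at 8.12, Btg2 at 6.08, Depdc1b at 3.68, Dennd1c at 15.1, Nicn1 at 20.7, P2ry12 at 8.47, Fas at 1.73, Ifit2 at 3.41, Rsad2 at 8.74, Nqo1 at 71.9 and Arhgef40 at 2.01 TPM. Smad3, Nicn1, Fas, Ifit2, Rsad2 and Arhgef40 were high in the same control, library 3, and Acta2, Btg2, Depdc1b, P2ry12 and Nqo1 in control 1. Cwc27, at 55.3 TPM, was high in control 5. In control 5 Smad2 at 1.19, Tgfbi at 47.1 and Id1 at 0.49 TPM lay far below the other controls. Of 32 lists, the mean log2(TPM + 1) of the cholesterol synthesis genes stood apart in control 2, at 2.57. None of 5 measures of library quality did. The cause was not tested.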

How the results depend on the processing

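No gene was called higher by limma in the knockout, with 453 at an unadjusted p under 0.05. The count called higher was 3 with a pseudocount of 10, 4 without a filter, 3 under quantile normalization, 0 to 6 when 1 library was left out and 14 without the libraries with Smad3, an alternative chosen after seeing the data that leaves 1 TGF-β1 library assumed to vary like the other groups. The count called lower, 1 as reported, was 0 with a pseudocount of 0.1, at 5 TPM, in the knockout alone, with the covariate, under the block and without the libraries with many genes at 0. It was 3 under quantile normalization, 0 to 6 with 1 library left out and 30 without the libraries with Smad3. Genes lower at an unadjusted p under 0.05 numbered 113 to 414 with 1 library left out, 171 without the libraries with many zeros and 476 without those with Smad3.

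Genes above all controls numbered 471 to 945 with 1 library left out, 1017 without the libraries with many zeros and 2807 without those with Smad3. Those below numbered 296 to 697, 567 and 2501, where fewer libraries alone raise such counts. Wild-type calls numbered 6 without a filter, 11 under the block, 5 without the libraries with many zeros and 18 to 34 with 1 knockout library left out. Differences between genotypes called were 1 without a filter, 0 to 1 with 1 library left out and 5 without the libraries with Smad3.

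Control and TGF-β1 libraries of the same number did not deviate together (correlations of 0.017, 0.02 and -0.0032 for numbers 1 to 3), so they share a number only. With the replicate block 0 genes were called in either direction, with 421 higher and 288 lower at an unadjusted p under 0.05.

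Of 2280 differences of 114 genes under 20 alternatives, 2254 kept their direction and side of the threshold and 10 reversed. None of these genes was called as reported, so keeping the side of the threshold means staying uncalled and says little about stability. The alternatives also reuse the same libraries. Over them the log2 difference ran from -8.04 to -2.16 for Fabp5 and from -1.19 to -0.88 for Plin2. With 1 library left out the log2 difference ran from -2.34 to 0.34 for Smad2, from -0.18 to 1.53 for Smad4, from -0.45 to 2.14 for Smad7 and from -0.31 to 0.67 for Adgre1, the reversals coming without TGF-β1 library 2 for Smad2 and Smad7 and without library 3 for the other two. Without the libraries with Smad3 the log2 difference was -0.07 for Smad3, -1.02 for Smad4 and -0.40 for Adgre1. Without the libraries with many zeros it was 0.44 for Smad2 and -0.74 for Smad7, and under the block -0.02 for Smad4. The cause was not tested. Depth is unknown, so its limit on low genes cannot be given.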

Other observations

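Gm6166, a predicted gene whose clone-type name kept it out of the naming rule, had a larger negative difference than any gene named by that rule, and it was chosen after its values were seen. It was at 37.9, 121, 703, 33.2 and 313.9 TPM in knockout controls 1 to 5 and at 0, 0 and 6.66 TPM in TGF-β1 libraries 1 to 3. All 5 controls lay above all 3 TGF-β1 libraries, and the log2 difference was -6.03 (limma adjusted p = 0.101). Without control 1 it was -6.47 (limma adjusted p = 0.0392, and 0.0392 to 0.791 over 20 alternatives).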
